A study of Mus musculus with 19 samples.

Results

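The genes described are 10 markers of mature dentate granule cells: Prox1, Calb1, Dock10, Sema5a, Maml2, Sipa1l2, Lct, Ablim3, Dsp and Tdo2. They were chosen by name, with earlier results of these data known. The Ensembl identifiers of the deposited table, with the version dropped, were matched to gene symbols. They are 10 of the 51789 genes of that table, each matched by 1 identifier, and all are protein-coding.

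Granule cells are the principal neurons of the dentate gyrus, the entrance of the hippocampal circuit. They receive input from the entorhinal cortex and send their axons, the mossy fibres, to CA3 pyramidal neurons and to the mossy cells of the hilus. They go on being born in the adult mouse, and the transcription factor Prox1 is known both for specifying their fate and for keeping them distinct from pyramidal neurons.

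The tissue sequenced was the dorsal part of the hippocampus of 19 male mice of strain C57BL/6J, aged 2 to 4 months. In experiment 1 all 11 mice were tTA+ and exposed to SOR, an abbreviation that the labels do not spell out. In that experiment 5 mice were DN+ (tTA+/DN+) and 6 were control littermates (tTA+/DN-). In experiment 2 all 8 mice were DN-. Their exposure was SOR in 4 mice (replicate 1 tTA-, replicates 2, 3 and 4 tTA+) and homecage in the other 4 (replicates 1 and 2 tTA-, replicates 3 and 4 tTA+). tTA is the tetracycline transactivator, which switches on transgenes placed behind a tet promoter, and DN is a dominant-negative Nr4A transgene of that kind. The labels do not name the promoter that drives tTA. In Nr4ADN mice as they are generally described, tTA is expressed from the Camk2a promoter in excitatory neurons of the forebrain, granule cells included.

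Libraries held 22258159 to 66991576 counts, in experiment 2 from 22258159 to 66991576 for tTA+ and from 29271465 to 48377211 for tTA- mice. The library of SOR replicate 3 of experiment 2, a tTA+ mouse, stood apart with the smallest total and with 27815 genes detected, against 30165 to 32495 in the other 7 libraries of that experiment. Markers of the labelled tissue were present: summed levels of 5 CA1 markers ranged from 355 to 456 CPM in tTA+ and from 417 to 455 in tTA- mice of experiment 2, while 3 markers of the neighbouring thalamus summed to 2.69 to 3.87 and to 3.27 to 3.39. The summed level of 6 choroid plexus markers varied widely, from 16.7 to 3990 over the 11 libraries of experiment 1 and from 23.2 to 2195 over the tTA+ libraries of experiment 2 and from 66.8 to 1013 over the tTA- libraries. Levels, in CPM, are counts relative to the library total, scaled by TMM over all libraries, and they compare a gene between libraries, not genes with each other. No cell type was isolated, so the assignment of the 10 genes to granule cells is background knowledge.

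Promoter sequences are shown for 3 members: Dsp and Tdo2, the members called between tTA+ and tTA- mice, which moved in opposite directions, and Prox1, the transcription factor of the set. Each is the 250 bases before the RefSeq transcription start on GRCm38.p6, written 5′ to 3′ on the strand of the gene, at chr13:38151044-38151293 (Dsp, plus strand), chr3:81975729-81975978 (Tdo2, minus strand) and chr1:190170828-190171077 (Prox1, minus strand). Capitals mark matches, on either strand, to the E boxes CAGCTG and CAGATG, the nuclear receptor core motif AGGTCA or the TATA box TATAAA.
Dsp: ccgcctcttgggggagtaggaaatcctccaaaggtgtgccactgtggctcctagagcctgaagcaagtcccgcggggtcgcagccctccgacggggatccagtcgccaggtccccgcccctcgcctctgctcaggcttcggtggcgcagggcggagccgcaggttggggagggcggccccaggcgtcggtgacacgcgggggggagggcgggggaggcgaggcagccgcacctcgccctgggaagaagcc
Tdo2: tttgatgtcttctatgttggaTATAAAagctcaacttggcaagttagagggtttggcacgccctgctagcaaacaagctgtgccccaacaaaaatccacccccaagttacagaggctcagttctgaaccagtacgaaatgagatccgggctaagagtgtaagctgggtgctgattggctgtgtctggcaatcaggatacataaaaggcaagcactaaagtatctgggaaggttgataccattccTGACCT
Prox1: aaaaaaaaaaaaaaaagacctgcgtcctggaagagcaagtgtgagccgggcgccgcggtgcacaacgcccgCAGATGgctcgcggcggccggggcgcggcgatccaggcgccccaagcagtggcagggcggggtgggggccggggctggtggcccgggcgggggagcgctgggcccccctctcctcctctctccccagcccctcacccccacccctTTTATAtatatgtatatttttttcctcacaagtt

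The Dsp window held none of these letters and had a GC content of 72.4%. The Tdo2 window, with a GC content of 46.4%, held TATAAA on the gene strand 229 to 224 bases before the start and AGGTCA on the opposite strand 6 to 1 bases before it. Its RefSeq start lies 474 bases inside the gene as GENCODE annotates it. The Prox1 window, with a GC content of 64.8%, held CAGATG 179 to 174 bases before the start. It also held TATAAA on the opposite strand 34 to 29 bases before the start. The RefSeq start of Prox1 lies 113 bases upstream of the gene as GENCODE annotates it. Over all 32536 mouse windows of this length, 13.1% held CAGCTG, 14.4% CAGATG, 14.04% AGGTCA and 12.3% TATAAA. RefSeq promoters were taken for 8 of the 10 members. Ablim3 was left out because members on chromosome 18 were skipped, and no entry was used for Calb1. Matches to such short motifs are a description of the letters only.

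Of the 10 markers, 2 differed between tTA+ and tTA- mice of experiment 2 after adjustment over all genes: Dsp fell and Tdo2 rose in tTA+ mice. The direction was negative in 9 of the 10, counting Lct at -0.01, and in 10721 of all 22904 genes tested. The median log2 fold change was -0.36, beside 0.01 over all genes tested. Because the markers were chosen with earlier results of these data known, such shares describe the set only. At an unadjusted p under 0.05, 6 markers were lower and 1 higher in tTA+ mice. The comparison set 5 tTA+ against 3 tTA- libraries, with exposure in the model, and all 10 markers passed the filter on low counts. By edgeR's quasi-likelihood test with Benjamini-Hochberg adjustment, 0.358% of all genes were called at an adjusted p under 0.05, 0.249% as lower and 0.109% as higher. At the unadjusted threshold 3.44% of all genes were lower and 2.27% higher. In 4 markers every tTA+ library lay below every tTA- library, and in 1 every tTA+ library lay above, against 3.52% and 2.29% of all genes. Without SOR replicate 3, the library that stood apart, 3 markers were called (Dsp, Tdo2 and Sipa1l2), and 290 genes in place of 82. Without SOR replicate 1 or any 1 of the 4 homecage libraries, no marker was called, and 10 to 25 genes were. In whole tissue, fewer granule cells and less RNA of a gene per granule cell cannot be told apart. The labels make each library a separate sample, and the p-values measure the spread between these samples.

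**Figure D1:**
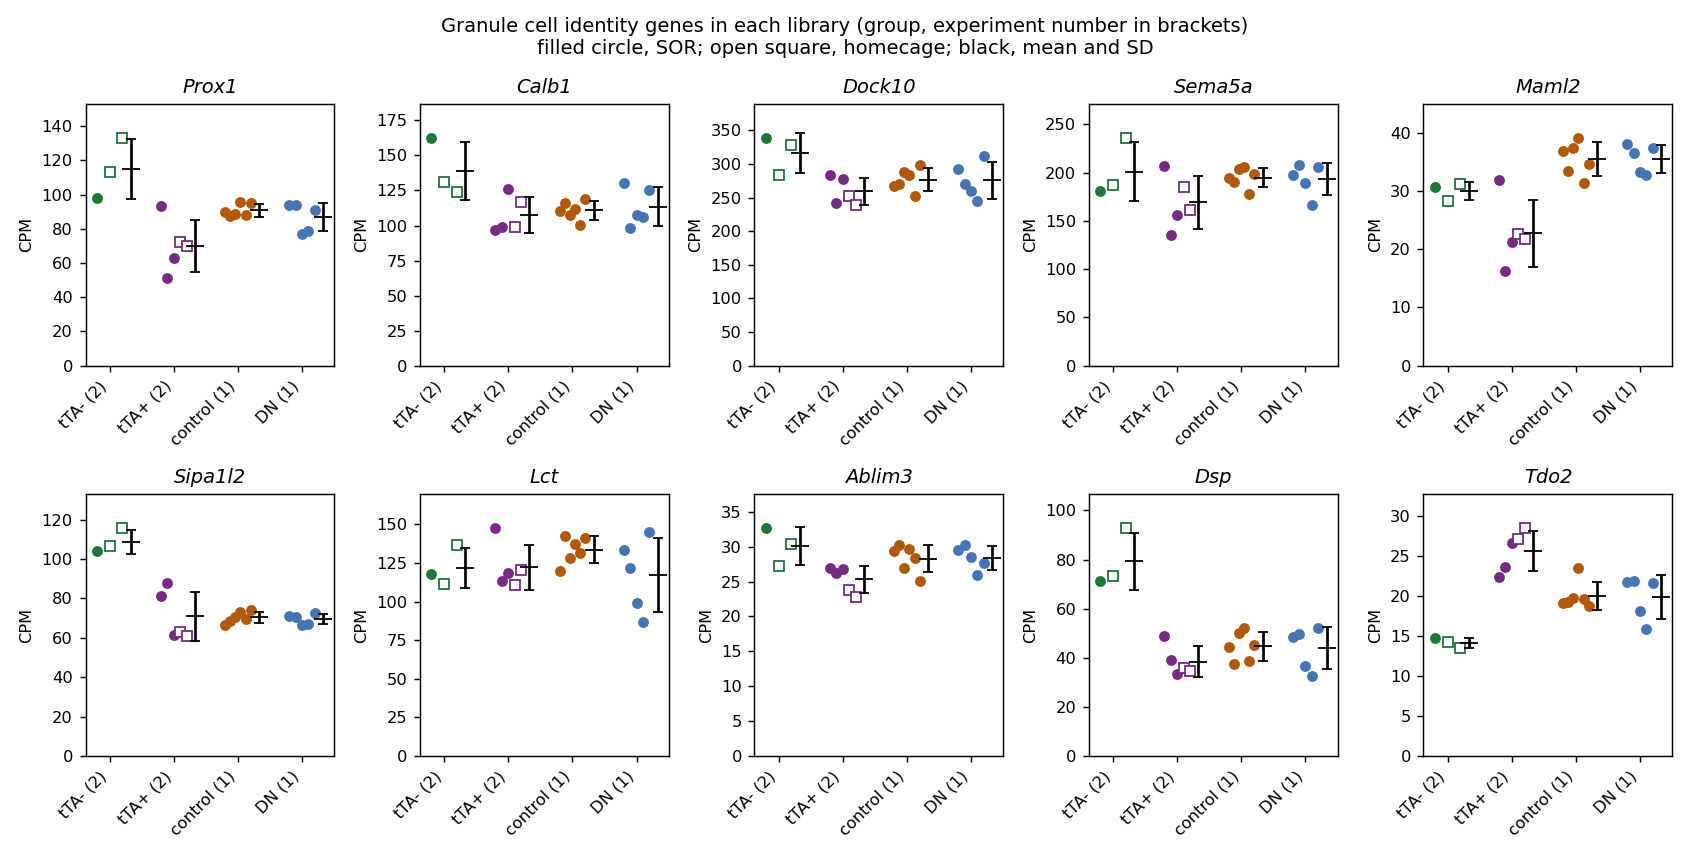
Levels of the 10 markers in each of the 19 libraries (CPM, own scale per panel), grouped as tTA- and tTA+ (experiment 2) and control and DN (experiment 1). Circles are SOR and squares homecage libraries, and black lines give the mean and SD. The 3 tTA- libraries sit above the 5 tTA+ libraries of experiment 2 for Prox1, Sipa1l2, Ablim3 and Dsp and below them for Tdo2.

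Among the regulators of transcription, Prox1 (ENSMUSG00000010175, chr1:190118035-190170714, minus strand, 9 exons on GRCm38), the homeodomain factor of granule cell fate, stood at 113 and 133 CPM in homecage replicates 1 and 2 and at 98.2 in SOR replicate 1, the 3 tTA- libraries. In the tTA+ libraries it stood at 72.3 and 69.8 (homecage replicates 3 and 4) and at 93.3, 51.1 and 63.0 (SOR replicates 2, 3 and 4). The groups did not overlap, but SOR replicate 2 came close to the lowest tTA- library. The means were 69.9 ± 15.4 (SD, n = 5) and 115 ± 17.6 (n = 3), a log2 fold change of -0.67 (SE 0.18) that missed the threshold (edgeR quasi-likelihood, adjusted p = 0.350). Without SOR replicate 2 the adjusted p was 0.0164, and without any 1 of the other 7 libraries it was at least 0.102, with a log2 fold change of -0.79 to -0.57 over the 8 omissions. With a block on replicate number, where a single number holds both genotypes, the value was -0.20 and was not called. Maml2 (chr9:13297957-13709388, plus strand), a coactivator of Notch signalling, stood at 28.2, 31.1 and 30.7 CPM in the tTA- libraries and at 22.6, 21.7, 31.9, 16.2 and 21.1 in the tTA+ libraries, in the same order. SOR replicate 2 again set the overlap: its Maml2 level was above all 3 tTA- libraries, while the other 4 tTA+ libraries were below them. The log2 fold change of Maml2 was -0.41 (SE 0.19, edgeR adjusted p = 0.900), and with the block on replicate number it changed sign to 0.19.

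Dsp (ENSMUSG00000054889, chr13:38151294-38198577, plus strand, 28 exons) encodes desmoplakin, which ties intermediate filaments to desmosomes. Its promoter is the first of those printed above. It stood at 73.5, 92.8 and 71.4 CPM in homecage replicates 1 and 2 and SOR replicate 1 (tTA-), and at 35.9, 34.5, 48.9, 39.0 and 33.3 in homecage replicates 3 and 4 and SOR replicates 2, 3 and 4 (tTA+). The highest tTA+ library, SOR replicate 2, was still well under the lowest tTA- library. Dsp fell by 1.06 on the log2 scale (SE 0.15, edgeR adjusted p = 0.0191), from a mean of 79.2 ± 11.8 (SD, n = 3) to 38.3 ± 6.30 (n = 5). The call held without SOR replicate 2, 3 or 4, and was lost when SOR replicate 1 or any of the 4 homecage libraries was left out, with a log2 fold change of -1.24 to -0.93 over the 8 omissions and an adjusted p of at most 0.146. Within the homecage libraries alone the log2 fold change was -1.24, and within the SOR libraries alone, with a single tTA- library, it was -0.83 and was not called.

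The other markers of the cytoskeleton, adhesion and small GTPase signalling were lower in mean in tTA+ mice, and none was called. Sipa1l2 (ENSMUSG00000001995, chr8:125418063-125569808, minus strand), a GTPase-activating protein for Rap, stood at 107, 116 and 104 CPM in the tTA- and at 63.0, 61.1, 81.4, 87.6 and 61.7 in the tTA+ libraries, in the order given for Dsp. The groups were separate, with SOR replicates 2 and 3 the highest of the tTA+ libraries. The log2 fold change of Sipa1l2 was -0.67 (SE 0.13, edgeR adjusted p = 0.0921). It was called under 5 of 19 alternative settings, among them DESeq2 (adjusted p = 0.00188) and the omission of SOR replicate 3 (0.00521). Omission of any 1 of the other 7 libraries gave adjusted p values of 0.0588 to 0.503, and the SOR libraries alone a log2 fold change of -0.45. Ablim3 (chr18:61799392-61911824, minus strand), an actin-binding LIM protein, stood at 27.2, 30.4 and 32.6 CPM in the tTA- and at 23.8, 22.8, 27.0, 26.2 and 26.8 in the tTA+ libraries. These groups did not overlap, though homecage replicate 1 and SOR replicate 2 were nearly level, and the log2 fold change was -0.30 (SE 0.090, edgeR adjusted p = 0.438). Dock10 (chr1:80501073-80758527, minus strand), a guanine nucleotide exchange factor, stood at 283, 328 and 339 CPM in the tTA- and at 252, 239, 284, 242 and 278 in the tTA+ libraries. Homecage replicate 1 and SOR replicate 2 overlapped by a narrow margin, and the log2 fold change was -0.32 (SE 0.096, edgeR adjusted p = 0.429). Sema5a (chr15:32244810-32696341, plus strand), a transmembrane semaphorin of axon and synapse development, ranged from 135 to 207 CPM in tTA+ and from 181 to 236 in tTA- libraries. Its groups overlapped broadly, and the log2 fold change was -0.21 (SE 0.15, edgeR adjusted p = 0.9999), or -0.10 without homecage replicate 2.

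Calb1 (ENSMUSG00000028222, chr4:15881264-15908064, plus strand) encodes calbindin-D28k, the calcium buffer by which granule cells are often stained, and which CA1 pyramidal cells and interneurons also make. It stood at 131, 124 and 163 CPM in the tTA- libraries and at 98.8, 117, 97.0, 99.0 and 126 in the tTA+ libraries. SOR replicate 4 of the tTA+ mice overlapped with homecage replicate 2 of the tTA- mice. The log2 fold change of Calb1 was -0.40 (SE 0.12, edgeR adjusted p = 0.445), and it was -0.24 without SOR replicate 1, the tTA- library with the highest level.

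The 2 enzymes among the markers did not follow the others. Tdo2 (ENSMUSG00000028011, chr3:81957090-81976202, minus strand, 18 exons) encodes tryptophan 2,3-dioxygenase, which opens the kynurenine pathway of tryptophan breakdown. It stood at 14.2, 13.5 and 14.7 CPM in the tTA- and at 27.1, 28.5, 22.4, 23.7 and 26.6 in the tTA+ libraries. The tTA- libraries lay within a narrow band, far below every tTA+ library. Tdo2 rose by 0.88 on the log2 scale (SE 0.11, edgeR adjusted p = 0.00656), from a mean of 14.2 ± 0.617 (SD, n = 3) to 25.6 ± 2.52 (n = 5). The call was lost without the same 5 libraries as for Dsp, at adjusted p values up to 0.0794, with a log2 fold change of 0.84 to 1.01 over all omissions. Within the homecage libraries alone the log2 fold change was 1.01, and within the SOR libraries alone it was 0.71 and was not called. Lct (chr1:128284756-128328318, minus strand), the gene of lactase, stood at 111, 136 and 118 CPM in the tTA- and at 111, 121, 148, 113 and 118 in the tTA+ libraries. Its group means were both 122 CPM, and the log2 fold change was -0.01 (SE 0.13, edgeR adjusted p = 0.9999).

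**Figure D2:**
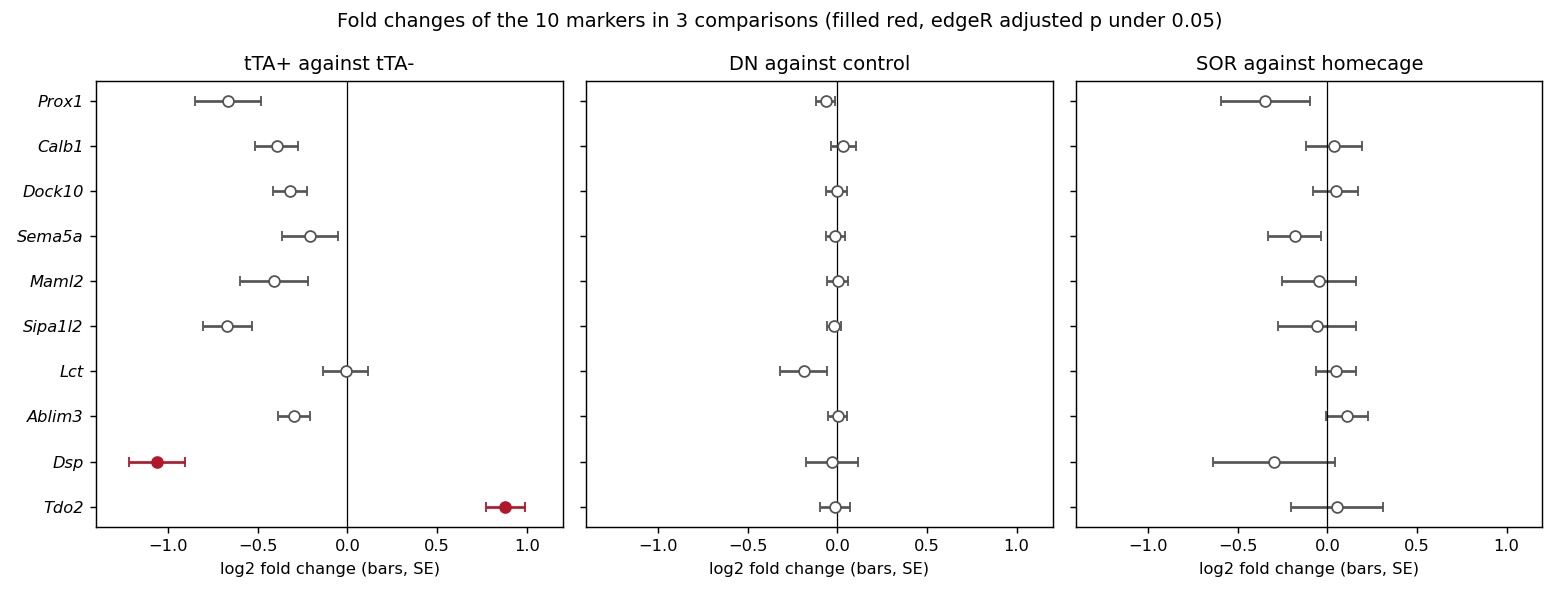
Log2 fold changes of the 10 markers (points, red where called, with bars of 1 standard error) in the 3 comparisons: tTA+ against tTA-, DN against control and SOR against homecage. The largest departures from 0 are Dsp at -1.06 and Tdo2 at 0.88 in the tTA comparison, while the DN comparison keeps all markers between -0.19 and 0.03.

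**Figure D3:**
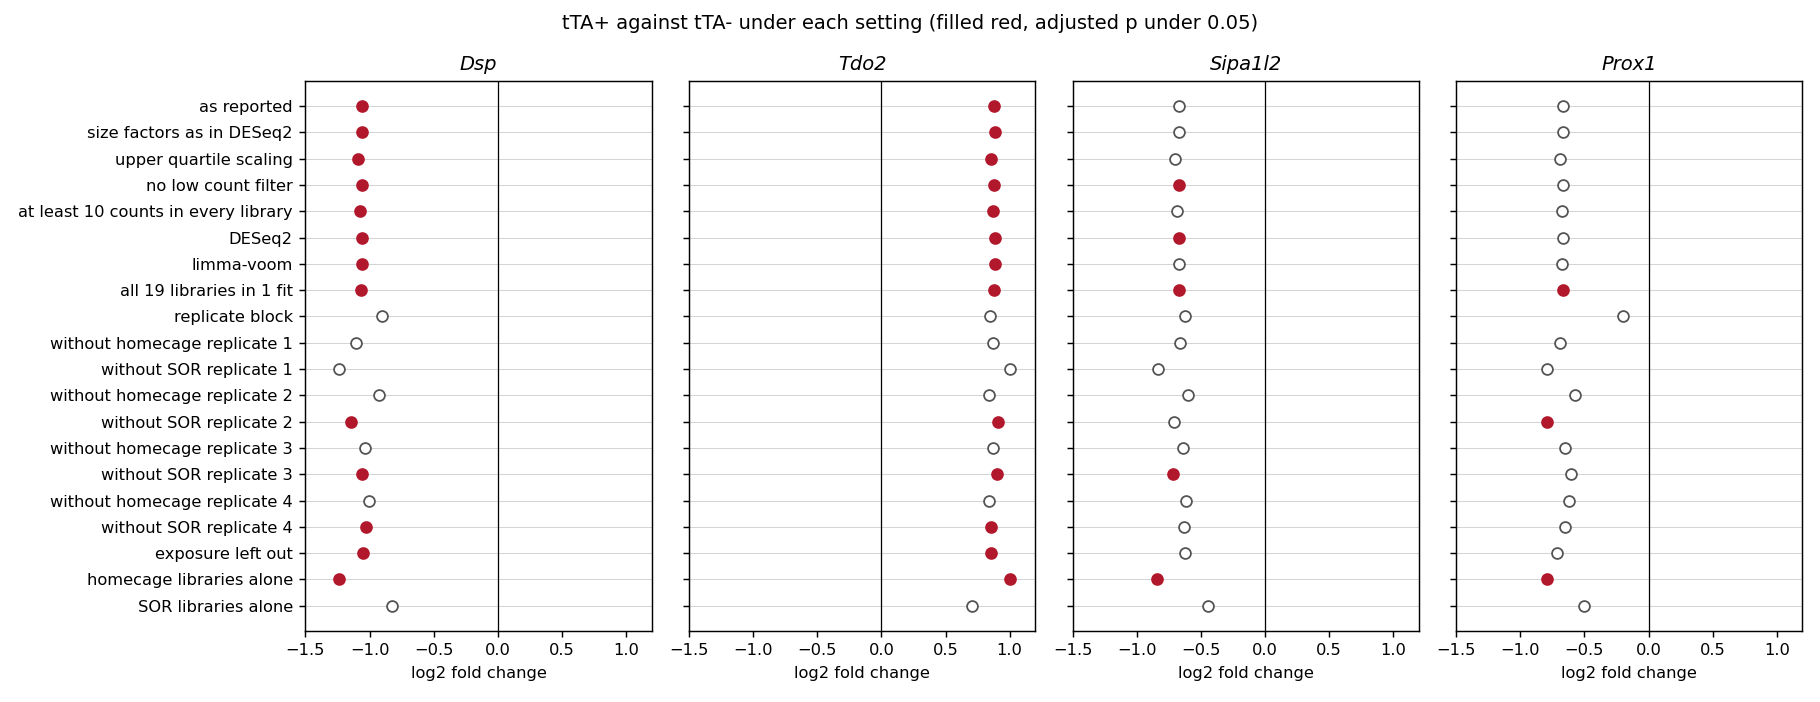
Log2 fold change between tTA+ and tTA- mice (horizontal axis) for Dsp, Tdo2, Sipa1l2 and Prox1, as reported and under each alternative of scaling, filter, tool, model and libraries (lines), filled red where the adjusted p was under 0.05. Dsp lies between -1.24 and -0.83, Tdo2 between 0.71 and 1.01, Sipa1l2 between -0.84 and -0.45 and Prox1 between -0.79 and -0.20 in all of them, and each of the 4 genes is called under some of them and not under others.

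Levels were compared between genes only after division by the summed exon length. In tTA- mice the order, from high to low, was Calb1 (28.7 CPM per kb), Lct (19.03), Dock10 (17.3), Prox1 (13.7), Sipa1l2 (11.3), Sema5a (10.8), Dsp (8.20), Ablim3 (6.63), Maml2 (4.55) and Tdo2 (3.65). In tTA+ mice of experiment 2 Calb1 (22.2), Lct (19.1) and Dock10 (14.2) stayed in front, followed by Sema5a (9.05), Prox1 (8.33), Sipa1l2 (7.38), Tdo2 (6.61), Ablim3 (5.58), Dsp (3.97) and Maml2 (3.44). Tdo2 thus went from place 10 to place 7 and Dsp from place 7 to place 9. In tTA- mice the library ranges of neighbours overlapped from Lct down to Sema5a, so neighbouring places there do not differ beyond their spread. Genes further apart did separate, as every Lct value lay above every Prox1, Sipa1l2 and Sema5a value. Calb1, Dsp, Ablim3, Maml2 and Tdo2 were each separate from their neighbours. In tTA+ mice the ranges of Calb1 and Lct overlapped, and so did those of all neighbours from Sema5a down to Maml2. In experiment 1 the order again began with Calb1 (23.1), Lct (19.7) and Dock10 (15.1) and ended with Tdo2 (5.14) and Dsp (4.598).

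Of the 12 further genes known from granule cells, 6 fell in tTA+ mice, none rose, and the median log2 fold change was -0.62. Of all genes, 0.249% were called lower and 0.109% higher. C1ql2 was already known from earlier work on these libraries to be lower. C1ql2 and C1ql3, secreted proteins of mossy fibre synapses, fell by 2.19 (SE 0.16, edgeR adjusted p = 3.2e-04) and by 1.16 (SE 0.12, adjusted p = 0.00300) on the log2 scale. In the tTA- libraries C1ql2 stood at 95.9, 85.1 and 83.7 CPM and in the tTA+ libraries at 19.96, 16.1, 18.2, 27.5 and 16.7, so that every tTA+ library was under every tTA- one by a wide margin. The other 4 were Trpc6, a cation channel, Stxbp6, a syntaxin-binding protein, Glis3, a zinc finger transcription factor, and Npnt, an integrin ligand of the extracellular matrix, with log2 fold changes of -1.21, -1.13, -0.87 and -0.64 and edgeR adjusted p values of 0.00117, 0.0145, 0.0139 and 0.0338. The remaining 6 were not called and ran from -0.60 to 0.38. Of the 12, C1ql2 alone kept its call whichever of the 8 libraries was left out. C1ql3 (adjusted p = 0.148) and Trpc6 (0.0771) lost theirs without SOR replicate 1. Stxbp6, Glis3 and Npnt lost theirs without SOR replicate 1 or any homecage library, with adjusted p up to 0.360, 0.343 and 0.223, and Npnt also without SOR replicate 4.

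Markers of the other cells in the tissue were measured beside these. In tTA+ against tTA- mice, none of the 63 tested genes of 13 other marker lists was called by edgeR's quasi-likelihood test. At an unadjusted p under 0.05, 7 of the 63 were higher and 4 lower, against 2.27% and 3.44% of all genes, and limma-voom called 0. DESeq2, which called 1.16% of all genes, called 2 of the 63, Igfbpl1 and Map3k15, a CA2 marker. Median log2 fold changes were -0.02 for CA1, -0.24 for CA2, -0.08 for CA3, 0.20 for interneurons, 0.08 for astrocytes, 0.09 for microglia, 0.20 for oligodendrocytes, 0.23 for neocortex, -0.07 for thalamus and 0.03 for genes of all neurons. Fibcd1, a marker of CA1, had a value of -0.28 (adjusted p = 0.725) and separate groups. Immature granule cells and progenitors had a median of 0.20 over 8 genes, 5 positive and 3 negative, from -0.45 to 1.07, and at an unadjusted p under 0.05 there were 2 higher and 1 lower. The highest value was that of Igfbpl1, a marker of young neurons, at 1.07 (SE 0.22, edgeR adjusted p = 0.111). Igfbpl1 was called under 5 of 19 alternative settings. The 3 mossy cell markers had a median of 0.63, from 0.01 for Calcrl to 0.69 for Calb2, which encodes calretinin (edgeR adjusted p = 0.809). The median was that of Drd2, at mean levels of only 2.04 CPM in tTA+ and 1.37 CPM in tTA- mice. The value of Calb2 ran from 0.41 without homecage replicate 3 to 1.12 without SOR replicate 1, and was 1.13 in the homecage and 0.16 in the SOR libraries alone. The 6 choroid plexus markers had a median of -0.41. Summed levels of the 5 genes of all neurons ranged from 5112 to 5819 CPM in tTA+ and from 5408 to 5603 in tTA- mice, so the groups overlapped, and so did those of CA1, given above. The 10 granule markers summed to 834 to 1041 CPM in tTA+ and to 1075 to 1241 in tTA- mice, and the 12 further genes to 1112 to 1299 and 1467 to 1583, without overlap. The part of any cell type in these differences was not tested.

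**Figure D4:**
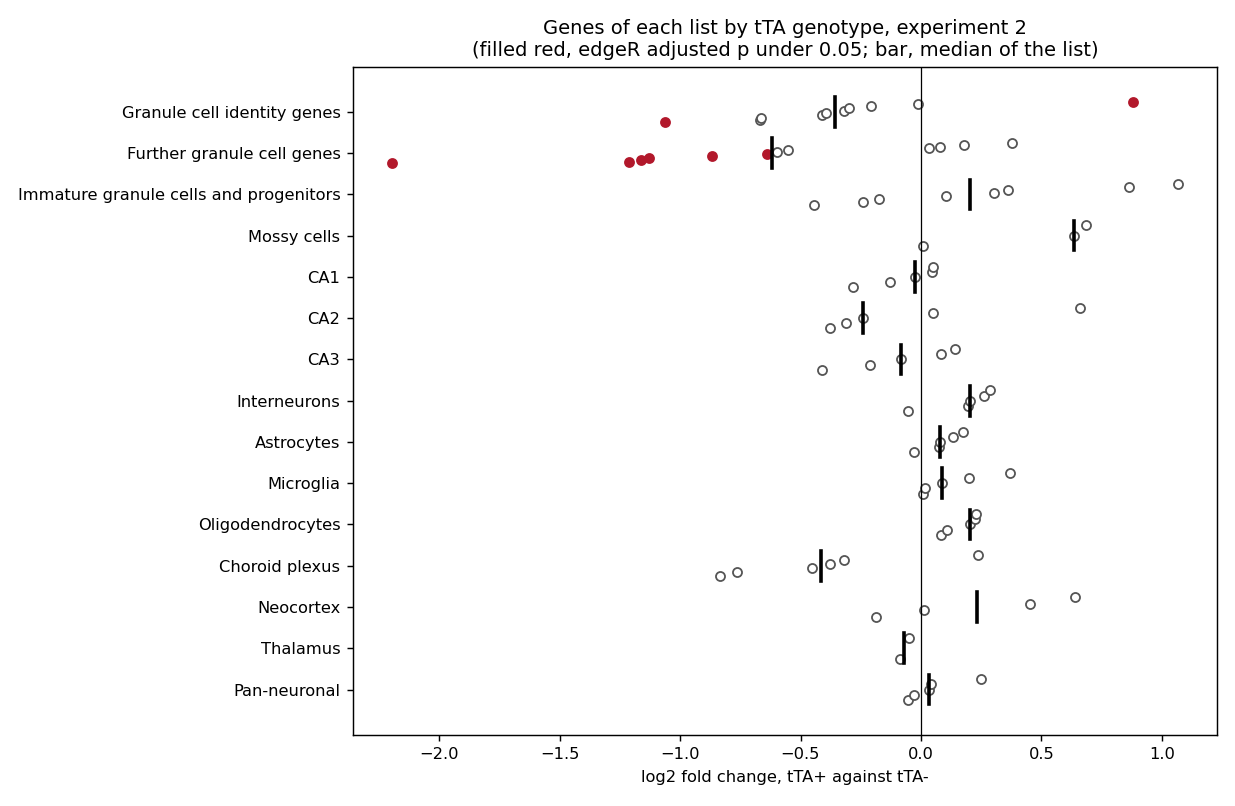
Log2 fold changes between tTA+ and tTA- mice for each gene (points, red where called) of the granule cell markers, the further granule cell genes and the 13 lists of other cells, with list medians as vertical bars. The medians of the 2 granule cell lists lie at -0.36 and -0.62, and the medians of the other lists between -0.41 and 0.63.

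The markers varied together over the 8 libraries of experiment 2 to different degrees, as described by the correlation of each with the mean of all 10 (centred log2 CPM, the gene itself included). Pearson's r over these 8 libraries was 0.95 for Prox1, 0.94 for Dsp, 0.92 for Maml2, 0.91 for Dock10, 0.83 for Sema5a, 0.80 for Sipa1l2, 0.79 for Ablim3, 0.54 for Calb1, 0.49 for Lct and -0.89 for Tdo2. Tdo2 thus ran against the others across libraries, and Calb1 and Lct followed them least. Among the tTA+ libraries, SOR replicate 2 held 7 of the 10 markers above the mean of the experiment, with the other 4 holding 1 or 2. The same library had the highest summed choroid plexus level of the tTA+ mice, at 2195 CPM against 23.2 to 71.7 CPM in the other 4, and the part of this in its marker levels was not tested. All the libraries share the 2 genotypes and the 2 exposures, so these coefficients describe likeness only. The 5 other genes most like the mean of the markers over the same libraries were Gcnt7 and Prkag2 (both r = 0.98), Slc7a14 (0.98), Nhsl2 (0.98) and Vwa3b (0.97). Their log2 fold changes between tTA+ and tTA- mice were -0.42, -0.24, -0.48, -0.38 and -0.50, and none was called by edgeR's quasi-likelihood test. These genes were picked by likeness to a mean that was itself lower in tTA+ mice. Their direction follows from that choice, and their calls are not separate evidence. Over 19 alternative settings, Slc7a14 was called in 5, Vwa3b in 3, Nhsl2 in 2, Prkag2 in 1 and Gcnt7 in 0. DESeq2 was among them and called Slc7a14 and Vwa3b (adjusted p = 0.0345 and 0.0241).

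**Figure D5:**
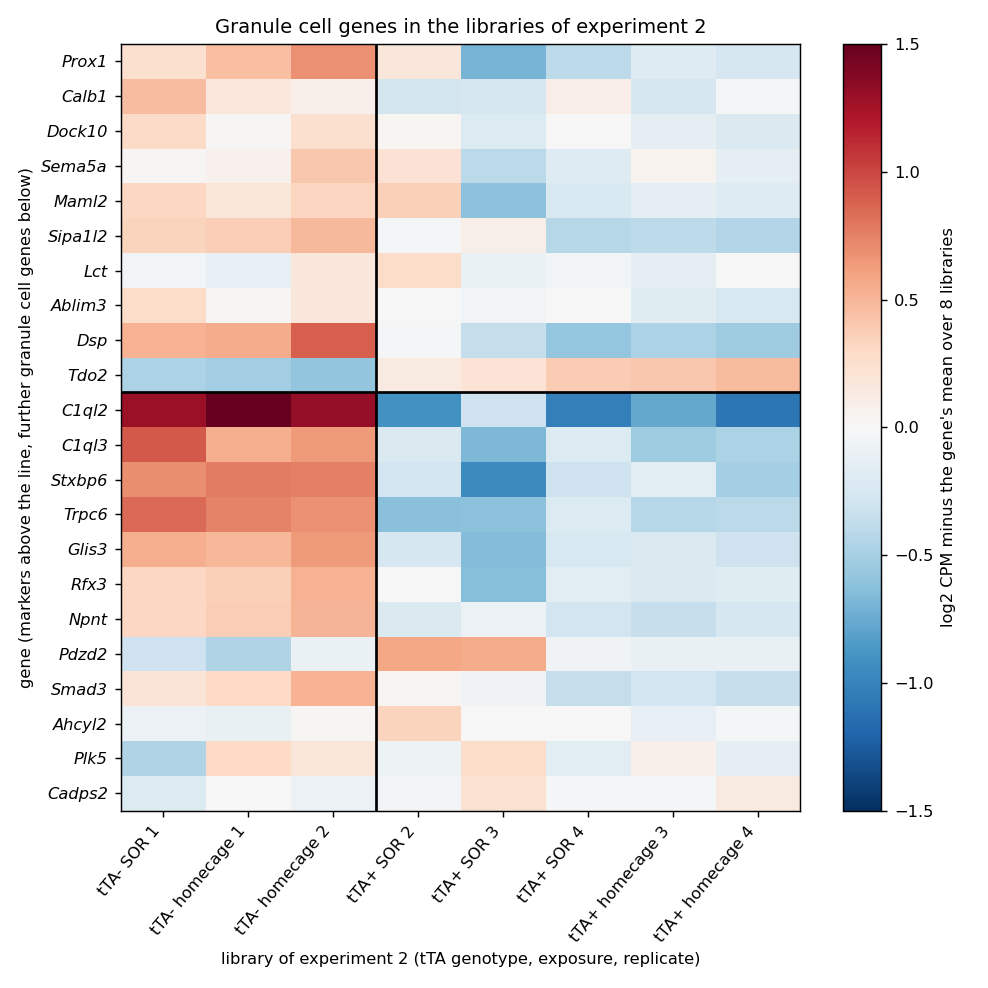
Log2 CPM of the 10 markers (above the horizontal line) and the 12 further granule cell genes (below it) in the 8 libraries of experiment 2, as a colour scale centred on the mean of each gene, with the 3 tTA- libraries left of the vertical line. Prox1, Dsp, Sipa1l2 and C1ql2 are high in the tTA- libraries, and Tdo2 is low in them.

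The 11 mice of experiment 1, all tTA+, form a separate experiment by the labels, so their levels stand beside those of experiment 2 as a description without a test. Over all 22904 genes tested by tTA genotype, 9.47% had all 11 libraries of experiment 1 below every tTA- library and 5.95% had all 11 above, and differences between the experiments and tTA genotype cannot be told apart here. For Prox1, Sipa1l2 and Dsp all 11 libraries lay below every tTA- library of experiment 2, at 76.8 to 95.9, 66.3 to 74.1 and 32.6 to 52.3 CPM, with medians of 89.9, 70.7 and 45.3. For Tdo2 all 11 lay above every tTA- library, at 15.8 to 23.5 CPM with a median of 19.6. Maml2 went the other way from its tTA+ group in experiment 2: at 31.3 to 39.1 CPM with a median of 36.5, all 11 libraries exceeded every tTA- library. The mean of experiment 1 was nearer the tTA+ than the tTA- mean for 7 markers, counting Lct, whose tTA+ and tTA- means were level, and nearer the tTA- mean for Sema5a, Maml2 and Ablim3. Of the 12 further genes, 8 had all 11 libraries below every tTA- library, against the 9.47% of all genes, C1ql2 among them, at 9.07 to 17.6 CPM. Pdzd2 had all 11 libraries above every tTA- library, at 64.9 to 86.0 CPM against 42.3 to 54.1 CPM, as had 5.95% of all genes.

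Within experiment 1, none of the 10 markers was called between DN and control mice, and the median log2 fold change was -0.01, beside 0.00 over all 22391 genes tested. The comparison asks whether blocking Nr4A factors changes expression after SOR, with 5 DN and 6 control mice. By edgeR's quasi-likelihood test 0.00893% of all genes were called. At an unadjusted p under 0.05 there was no marker either, against 3.83% of all genes, none of the 10 had groups without overlap, against 0.299%, and DESeq2 and limma-voom called none. The transcription factor Prox1 ranged from 76.8 to 93.8 CPM in DN and from 87.3 to 95.9 in control mice, with medians of 90.9 and 89.3 (log2 fold change -0.07, SE 0.051). Dsp stood at 48.6, 49.8, 36.8, 32.6 and 52.1 CPM in DN replicates 1 to 5 and at 37.6 to 52.3 in controls (median 44.8), with a log2 fold change of -0.03 (SE 0.15). Tdo2 stood at 21.7, 21.9, 18.2, 15.8 and 21.7 CPM in DN replicates 1 to 5 and at 18.7 to 23.5 in controls (median 19.4), with a log2 fold change of -0.01 (SE 0.082). For both genes DN replicates 3 and 4 were the lowest of the DN group, and DN replicate 4 was below the mean of the experiment in all 10 markers. Lct had the largest value, -0.19 (SE 0.13, unadjusted p = 0.174, edgeR adjusted p = 0.999), with 134, 122, 99.0, 86.7 and 145 CPM in DN replicates 1 to 5 and 120.0 to 142 in controls (median 135). Its value was -0.10 without DN replicate 4 and -0.28 without DN replicate 5. Sipa1l2 ranged from 66.3 to 72.4 CPM in DN and from 66.5 to 74.1 in control mice, with a log2 fold change of -0.02 (SE 0.038). The other 5 markers had log2 fold changes between -0.01 and 0.03. Of the 12 further genes none was called, and 1 was lower at an unadjusted p under 0.05, C1ql3 at -0.22 (SE 0.061, edgeR adjusted p = 0.999).

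SOR and homecage mice of experiment 2 were compared to see what the exposure changed, and none of the 10 markers was called. The comparison uses the same 8 libraries as that of tTA genotype, and tTA is not balanced over it, with 1 tTA- mouse in the SOR and 2 in the homecage group. The median log2 fold change was -0.00, beside 0.01 over 22305 genes, of which edgeR's quasi-likelihood test called 0.0897%. No marker reached an unadjusted p under 0.05, against 7.6% of all genes, none had groups without overlap, against 5.67%, and DESeq2 and limma-voom called none. Without SOR replicate 3 the count was also 0. The values farthest from 0 were those of Prox1 and Dsp, and neither kept its size in every setting. After SOR, Prox1 levels of replicates 1 to 4 were 98.2, 93.3, 51.1 and 63.0 CPM, and in the homecage they were 113, 133, 72.3 and 69.8 (log2 fold change -0.35, SE 0.25, edgeR adjusted p = 0.700). The Prox1 value was -0.14 with tTA in the model, -0.04 in tTA+ mice alone and -0.49 to -0.15 over omissions of 1 library. Dsp levels, in the same order, were 71.4, 48.9, 39.0 and 33.3 CPM after SOR and 73.5, 92.8, 35.9 and 34.5 in the homecage (log2 fold change -0.30, SE 0.34, edgeR adjusted p = 0.791). In each exposure the tTA- mice held the highest Dsp levels, and with tTA in the model the Dsp value was 0.04. The values of Sipa1l2, Tdo2 and Maml2 also changed sign with tTA in the model, from -0.06 to 0.16, from 0.06 to -0.10 and from -0.05 to 0.06. Sema5a had a log2 fold change of -0.18 (SE 0.15), Ablim3 of 0.11 (SE 0.12), and Calb1, Dock10 and Lct lay between 0.04 and 0.05. The 6 choroid plexus markers had a median of 2.62 in this comparison and of -0.98 between DN and control mice, and their part in the values of the granule markers was not tested.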

How the data were processed

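Whole-number raw counts per gene were deposited by the authors as 1 table for all 19 libraries, each made from ribosomal-RNA-depleted total RNA. The submitters' processing notes name STAR, SAMtools 1.6, featureCounts 1.4.4 and the mm10 build. The annotation, the use of strand and the treatment of multiply mapped reads are not given in the sources used here, so counts of overlapping genes are uncertain. GENCODE M21 (GRCm38), which held 51596 of the 51789 identifiers, gave symbols, positions and exon lengths, and RefSeq gave promoters.

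Each experiment was fitted alone with edgeR 4.0.16 in R 4.3.3 (filterByExpr, TMM, robust quasi-likelihood F test, two-sided, Benjamini-Hochberg adjustment over all genes tested, threshold 0.05). Standard errors are the absolute log2 fold change over the square root of F. The scripts were tested on simulated data. Alternatives were other scalings and filters, DESeq2 1.42.0, limma-voom (limma 3.58.1), 1 fit over all 19 libraries, a block on replicate number, exposure left out, tTA as a covariate, subsets of libraries, and each library left out in turn. Named were all 10 markers, called further granule cell genes, at most 3 genes per other list, and the 5 genes most like the markers' mean. C1ql3 in the DN comparison and Pdzd2 were singled out after their values were seen. Markers and lists were chosen with earlier results of these data known. Reads carry no molecular identifiers, and the totals per library bound counting error only.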

Additional observations from a re-analysis of the deposited data

Results flagged for a closer look

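Within groups of 4 to 10 libraries, the highest or lowest value of a marker was compared with its neighbour by Dixon's criterion, which chance meets in about 1 of 20 groups; 4 of 50 groups of values met it. Lct stood at 148 CPM in SOR replicate 2 of experiment 2, against 113 to 118 in the other SOR libraries and 111 to 121 in the other tTA+ libraries, so that this library stood out in both groupings. Ablim3 stood at 32.6 CPM in SOR replicate 1, the lone tTA- mouse of the SOR group, against 26.2 to 27.0 in the other 3. Tdo2 stood at 23.5 CPM in control replicate 4 of experiment 1, against 18.7 to 19.7 in the other 5 controls.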

How the results depend on the processing

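Between tTA+ and tTA- mice, 82 genes were called, 265 without a filter, 255 by DESeq2, 384 with all 19 libraries in 1 fit, 944 in the homecage libraries alone and 0 in the SOR libraries alone; the cause was not tested. Of the 10 markers 2 were called, 7 with all 19 libraries in 1 fit, 5 in the homecage libraries alone and 0 in the SOR libraries alone, where the single tTA- library is assumed to vary like the others and the count says nothing about stability. Leaving out 1 library gave 10 to 290 genes and 0 to 3 markers, with most genes without SOR replicate 3 and fewest without SOR replicate 1. The value of Lct turned to 0.0028 without exposure in the model and to 0.098 in the SOR libraries alone, and ran from -0.097 to 0.087 over omissions. Calb1 was -0.24 in the homecage and -0.61 in the SOR libraries alone.

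Same-numbered libraries deviated together with correlations of -0.050 to 0.193 in experiment 1 and 0.046 to 0.393 in experiment 2. For differently numbered libraries the correlations were -0.190 to 0.262 and -0.314 to 0.211. The medians for same and different numbers were 0.060 and -0.040 in experiment 1 and 0.087 and -0.103 in experiment 2. The labels give no pairing, so the numbers were not taken to pair the mice. With the replicate block, 0 genes and 0 markers were called between tTA+ and tTA- mice, where a single number holds both genotypes, and Sema5a (0.027), Maml2 (0.19) and Lct (0.12) changed sign. The block gave 9 genes between SOR and homecage, and between DN and control mice it turned Dock10 to 0.014, Maml2 to -0.0040 and Ablim3 to -0.030.

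Between DN and control mice 2 genes and no marker were called throughout. Near 0 already, Dock10 (0.010), Sema5a (0.0026) and Tdo2 (0.00093) changed sign under upper quartile scaling and Ablim3 (-0.0010) under limma-voom. Over omissions Prox1 ran from -0.096 to -0.025, Sipa1l2 from -0.034 to -0.0021, Lct from -0.28 to -0.097, Ablim3 from -0.029 to 0.034, Calb1 from -0.019 to 0.079, Dock10 from -0.054 to 0.036, Dsp from -0.097 to 0.064, Maml2 from -0.031 to 0.031, Sema5a from -0.041 to 0.037 and Tdo2 from -0.053 to 0.059.

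Between SOR and homecage mice 20 genes were called, 36 without a filter, 116 by DESeq2, 140 with all 19 libraries in 1 fit, 11 with tTA in the model, 0 in tTA+ mice alone and 1 to 50 when 1 library was left out, but no marker in any of these. Calb1 turned to -0.0071 under upper quartile scaling. With tTA in the model Maml2 (0.059), Sipa1l2 (0.16), Dsp (0.044) and Tdo2 (-0.10) changed sign, and in tTA+ mice alone Calb1 (-0.016), Maml2 (0.064), Sipa1l2 (0.30), Dsp (0.19) and Tdo2 (-0.21). Over omissions Calb1 ran from -0.14 to 0.13, Dock10 from -0.045 to 0.14, Dsp from -0.55 to 0.0068, Lct from -0.055 to 0.12, Maml2 from -0.19 to 0.11, Sema5a from -0.30 to -0.070, Ablim3 from 0.029 to 0.19, Sipa1l2 from -0.19 to 0.12 and Tdo2 from -0.11 to 0.24.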
